A study of Mus musculus with 3 samples.

Results

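The genes described here are 9 that make or remove superoxide: Cybb, Cyba, Ncf1, Ncf4 and Rac2 of the phagocyte NADPH oxidase, the superoxide dismutases Sod1, Sod2 and Sod3, and the catalase gene Cat. They were taken by symbol from the 55536 annotated genes, by a rule that uses no measured value, though earlier results of these data were known when the list was drawn up. Of the 9 genes, 8 reached a mean expected count of at least 10, the limit used for a detected gene, among 15873 detected genes in all. The exception was Sod3. In the mouse genome (mm10, GENCODE M21) the oxidase genes are Cybb (ENSMUSG00000015340.10) at chrX:9435252-9487771, Cyba (ENSMUSG00000006519.11) at chr8:122424776-122432930, Ncf1 (ENSMUSG00000015950.13) at chr5:134220053-134229625, Ncf4 (ENSMUSG00000071715.12) at chr15:78244801-78262580 and Rac2 (ENSMUSG00000033220.7) at chr15:78559167-78572783, the last pair on 1 chromosome. The other genes are Sod1 (ENSMUSG00000022982.10) at chr16:90220754-90226329, Sod2 (ENSMUSG00000006818.5) at chr17:13006846-13040063, Sod3 (ENSMUSG00000072941.5) at chr5:52363791-52371418 and Cat (ENSMUSG00000027187.10) at chr2:103453849-103485160.

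The RNA was the chromatin fraction of macrophages grown from the bone marrow of C57BL/6J mice, sequenced after depletion of ribosomal RNA. All libraries carried the same treatment: Lipid A, the TLR4-activating portion of the bacterial endotoxin LPS, at 100 ng/ml for 12 h, then 12 h without it, then 100 ng/ml again for 15 min. The 3 libraries are biological replicates 1, 2 and 3, started from 1000, 250 and 500 ng of RNA. Their labels carry 1 donor identifier and do not name separate animals, so the spread given below may be partly technical. With 1 group there is no comparison with unstimulated cells, and no test between conditions was possible.

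The phagocyte oxidase sits in the membrane as a pair of proteins, gp91phox from Cybb, which carries the electron path and makes superoxide, and p22phox from Cyba, which stabilises it. On activation the cytosolic proteins p47phox (Ncf1) and p40phox (Ncf4) join them together with the small GTPase Rac2. Superoxide dismutases turn superoxide into hydrogen peroxide in the cytosol (Sod1), in mitochondria (Sod2) and outside the cell (Sod3), and catalase breaks hydrogen peroxide down. RNA attached to chromatin is largely nascent or newly made, so introns are still present in much of it.

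The libraries held 14609979, 17423948 and 24162551 expected counts in replicates 1, 2 and 3. All 10 macrophage markers averaged 1 TPM or more (a level scaled by transcript length and by the total of the library), with sums of 948 to 1021 TPM per library. Of 11 neutrophil markers, which belong to the other phagocyte that uses this oxidase, none had a mean of 1 TPM, their sum was 1.37 to 1.85 TPM, and Elane and Ltf had 0 counts. None of 6 lymphocyte and 7 stromal markers had a mean of 1 TPM, while Zbtb46 of 6 dendritic and Alas2 of 6 erythroid markers did. These values are from the gene tables. In the read-based tables the neutrophil sum was higher, at 8.86 to 10.1 TPM, and the lymphocyte sum was 14.0 to 18.1 TPM, nearly all of it Cd3d. The erythroid sum there was 22.5 to 26.6 TPM, nearly all of it Alas2. A mean of 1 TPM was reached there by 3 of 11 neutrophil, 3 of 6 dendritic, 2 of 6 lymphocyte, 2 of 7 stromal and 1 of 6 erythroid markers. Fewer cells of a type and less RNA per cell cannot be told apart in such bulk samples.

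Sod2, the mitochondrial dismutase, had the highest mean level of the 9 genes in the gene tables, and the oxidase genes came next. Sod1, the cytosolic dismutase, and Cat, for catalase, lay well below them, and Sod3 was not detected. A mean of at least 1 TPM was reached by 8 of the 9 genes, against 48.4% of 22028 protein-coding genes. The median level of the 9 was 5.76 ± 0.16 on the log2(TPM + 1) scale (SD, n = 3), and that of all protein-coding genes was 0.78.

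Among the membrane subunits, Cybb had 167, 88.2 and 117 TPM in replicates 1, 2 and 3, a mean of 124 ± 40.0 TPM (SD, n = 3). Cyba, its partner, had 51.7, 40.6 and 60.1 TPM, a mean of 50.8 ± 9.79 TPM. In the gene tables Cybb was thus the higher of the pair in each library, by 3.24-, 2.17- and 1.95-fold in TPM. This gap was smaller in the read-based tables, where Cybb stood at 1.94, 1.02 and 1.03 times Cyba. For protein-coding forms alone in the alignment-based tables it stood at 1.46, 1.04 and 0.93 times Cyba, so that it was the lower in replicate 3.

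Among the cytosolic subunits, Ncf1 had 150, 117 and 122 TPM, a mean of 130 ± 17.6 TPM. Ncf4 had 121, 90.7 and 103 TPM, a mean of 105 ± 15.4 TPM. Ncf1 stood above Ncf4 by a factor of 1.24 ± 0.05 in TPM, but below it, at a factor of 0.81, in the read-based tables. Rac2, the GTPase of the complex, had 38.2, 48.2 and 34.2 TPM, and it was the only oxidase gene with its highest value in replicate 2. Its mean was 40.2 ± 7.20 TPM in the gene tables and 200 ± 45.0 TPM in the read-based tables, where it was the highest of the 9.

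Among the dismutases, Sod2 had 267, 117 and 175 TPM, a mean of 186 ± 75.7 TPM. Sod1 had 6.53, 9.60 and 10.2 TPM, a mean of 8.77 ± 1.96 TPM. Chromatin RNA of Sod2 thus exceeded that of Sod1 by 40.9-, 12.2- and 17.1-fold in TPM in replicates 1, 2 and 3. The read-based tables gave 32.5-, 13.4- and 22.8-fold. Protein-coding forms alone in the alignment-based tables gave 36.3-, 13.6- and 9.27-fold. Cat, the peroxide-removing enzyme of peroxisomes, had 5.69, 6.99 and 8.84 TPM, a mean of 7.17 ± 1.58 TPM. The ranges of Sod1 and Cat overlapped, and both were lowest in replicate 1, where Sod2 and Cybb were highest. Among 11755 detected protein-coding genes, Sod2 ranked 225, Ncf1 395, Cybb 415 and Ncf4 538 by mean TPM in the gene tables. Cyba ranked 1473, Rac2 1864, Sod1 6228 and Cat 6787. Ranks were taken in the gene tables alone.

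Sod3, the extracellular dismutase, had 0 expected counts in all 3 libraries. With 3 counts as the 1-sided limit that a count of 0 allows, this depth leaves room for a share of 0.208, 0.173 and 0.124 CPM, counts scaled to a common library total, in replicates 1, 2 and 3, and the upper ends of the 2-sided exact binomial 95% intervals were 0.256, 0.213 and 0.153 CPM. The read-based tables gave it 2.01, 3.02 and 4.03 estimated counts, or 0.0295, 0.0329 and 0.0354 TPM. By comparison, Sod2 held 370, 211 and 240 CPM, with exact binomial 95% intervals of 360 to 380, 204 to 218 and 234 to 246. These intervals cover counting error alone.

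**Figure D1:**
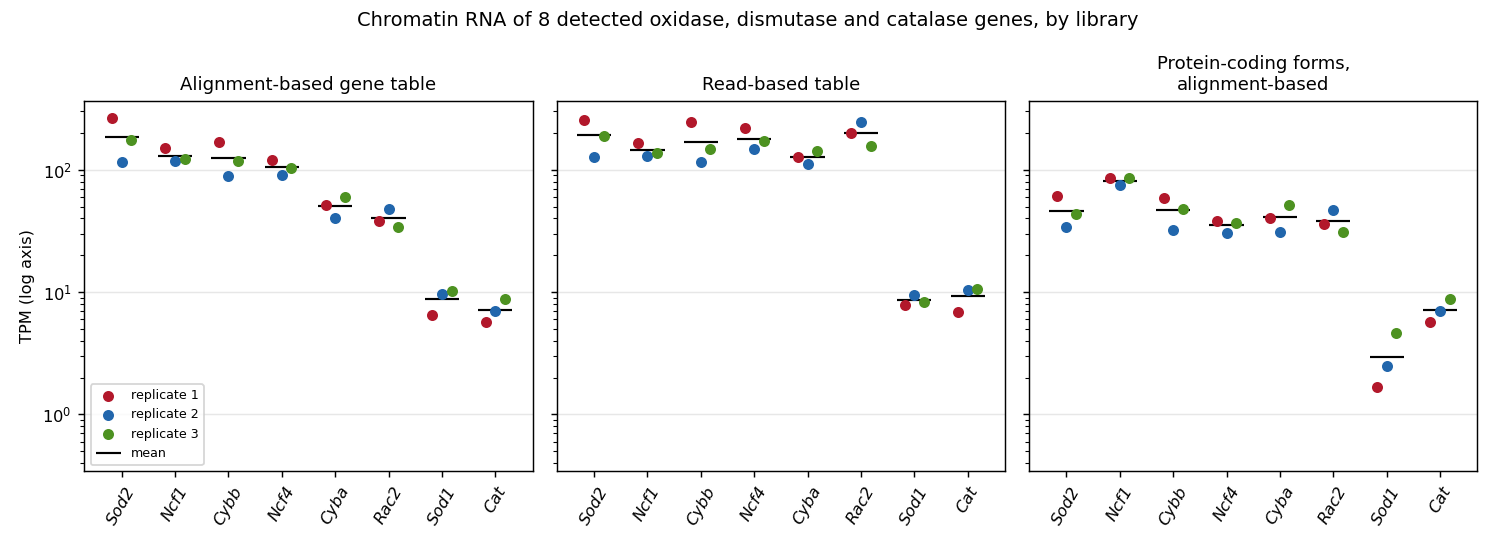
Level in TPM (log axis) of the 8 detected genes, with a point for each library and a line at the mean of 3, from the gene tables (left), the read-based tables (middle) and the protein-coding forms of the alignment-based transcript tables (right). Sod1 and Cat lie below the other genes in each panel, and Rac2 has a mean of 200 TPM in the middle panel against 40.2 TPM on the left.

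The order of neighbouring genes was mostly not resolved by 3 libraries. Of the 7 neighbouring pairs in the order of mean TPM, 2 had ranges that did not overlap: Ncf4 above Cyba, by 1.05 ± 0.25 in log2 TPM, and Rac2 above Sod1, by 2.21 ± 0.41. Sod2, Ncf1, Cybb and Ncf4 followed each other with overlapping ranges, and so did Cyba with Rac2 and Sod1 with Cat. Sod2 was above Ncf1 in 2 of the 3 libraries. In the read-based tables the pairs with ranges apart were Cyba above Cat and Sod1 above Sod3. The gap between the 6 higher genes and the pair of Sod1 and Cat was present in both kinds of table. Ncf4 was also above Cyba with ranges apart in both, while the place of Rac2 among the 6 differed between them. For protein-coding forms alone Ncf4 was the lower, with means of 35.1 against 41.0 TPM and overlapping ranges in the alignment-based tables. In the read-based tables its 48.3, 37.5 and 48.6 TPM lay below the 76.7, 61.2 and 80.6 TPM of Cyba.

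Forms with a retained intron carried a large part of the TPM of 5 of the genes. The share of the gene's TPM in retained-intron forms was 69.2 ± 4.32% for Sod2, 67.5 ± 11.4% for Sod1, 66.4 ± 2.34% for Ncf4, 62.3 ± 2.87% for Cybb and 36.2 ± 6.00% for Ncf1 (SD, n = 3). The median over 7010 detected protein-coding genes with both kinds of form was 46.6, 47.4 and 44.9% in replicates 1, 2 and 3. No retained-intron form is annotated for Cyba, Rac2, Cat and Sod3, so the annotation alone sets their share at 0. Forms of Cyba and Rac2 with other annotations do hold intron bases. Cyba-203, annotated as a processed transcript, has 295 of them in 682 nt. It held 17.8 ± 4.54% of the counts of Cyba in the alignment-based tables and 41.8 ± 3.05% in the read-based ones. Rac2-202 and Rac2-203 have 54 and 11 intron bases. Ncf1-205 keeps the last intron of Ncf1 but is annotated as protein coding, so it is left out of these shares. It held 18.6 ± 0.677% of the TPM of Ncf1 and 27.6 ± 2.71% of its counts. The place of Ncf1 against the medians thus depends on the annotation. As a share of expected counts the picture was another: 94.8 ± 2.59% for Sod1 and 35.4 ± 3.08% for Ncf4, but 16.6 ± 2.31% for Cybb, 9.95 ± 2.87% for Ncf1 and 6.93 ± 1.63% for Sod2, with a median of 29.4% over the same 7010 genes. In the read-based tables the share of counts was 20.5% for Ncf1, 12.0% for Sod2 and 53.6% for Ncf4, and the share of TPM for Ncf1 was 52.1%, above the median of 44.9% over the same genes rather than below it. TPM gives weight to short forms, and the retained-intron forms of Sod2 and Cybb are short beside the full-length messages, whereas that of Sod1 is long. These shares also depend on how reads common to several forms were divided. Reads of unspliced precursor RNA can be assigned to forms with intron bases as well. The shares thus do not tell precursors from finished transcripts that retain an intron.

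**Figure D2:**
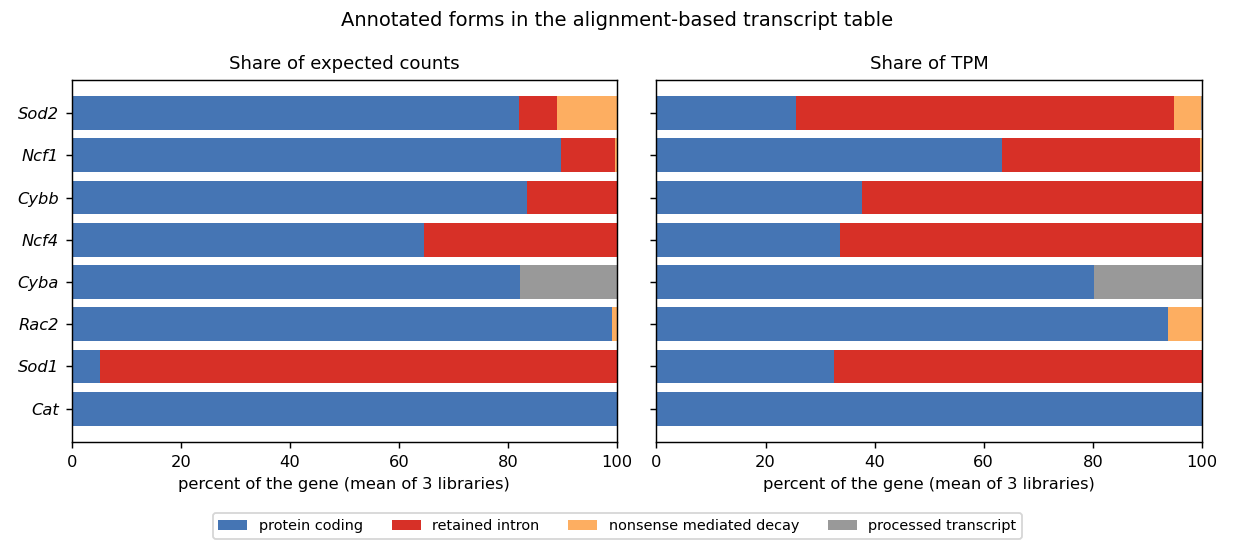
Share of each gene's expected counts (left) and TPM (right) by annotated kind of form, in percent, as means of 3 libraries from the alignment-based transcript tables. For Sod2 the retained-intron share is 6.93% of the counts and 69.2% of the TPM, and for Sod1 it is 94.8% of the counts and 67.5% of the TPM.

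In Sod2 most of this difference lay in 1 short form. Sod2-203, of 334 nt, had 156, 56.4 and 100 TPM in replicates 1, 2 and 3, which was 54.7 ± 5.55% of the TPM of Sod2 and 3.62 ± 1.24% of its counts. Sod2-201, the full-length message of 5861 nt, had 61.0, 34.2 and 43.1 TPM, which was 25.6 ± 3.33% of the TPM and 82.1 ± 1.24% of the counts. The short form was the higher in each library, and both had their highest value in replicate 1 and their lowest in replicate 2. Sod2-203 has 154 bases of coding sequence and 180 bases from the end of intron 2, so it keeps the end of intron 2 and joins exon 3 to exon 4. Its first exon is shown because it holds the intron bases by which this form differs from the full-length message, with exon 3 in capitals (mm10, GENCODE M21):
Sod2-203, chr17:13010340-13010636, + strand: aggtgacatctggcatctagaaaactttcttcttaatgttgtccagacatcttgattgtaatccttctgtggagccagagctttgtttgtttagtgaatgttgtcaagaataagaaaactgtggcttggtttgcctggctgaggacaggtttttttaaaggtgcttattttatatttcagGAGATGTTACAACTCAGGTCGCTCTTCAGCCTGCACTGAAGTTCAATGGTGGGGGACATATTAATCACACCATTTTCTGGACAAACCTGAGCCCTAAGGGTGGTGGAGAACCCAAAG
The read-based tables gave Sod2-203 nearly the same levels, 143, 59.3 and 103 TPM. Sod2-202, a form annotated for nonsense-mediated decay whose last exons lie far downstream, held 10.9 ± 0.998% of the counts.

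**Figure D3:**
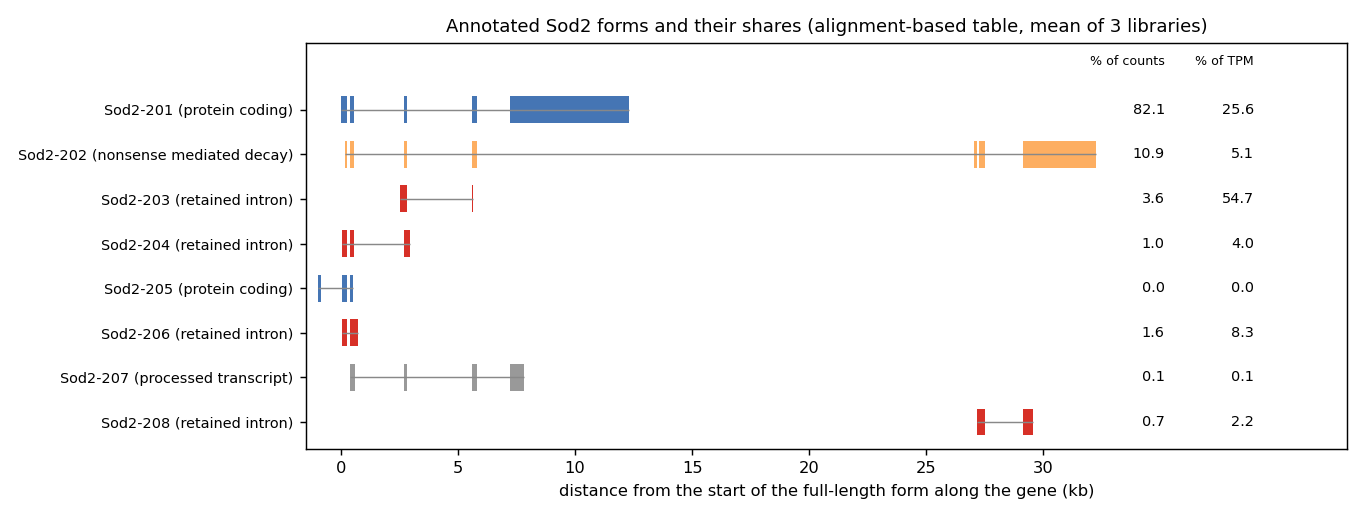
Map of the 8 annotated Sod2 forms by distance in kb from the start of Sod2-201, with boxes for exons, colours for the kind of form (blue protein coding, orange nonsense-mediated decay, red retained intron, grey processed transcript) and the mean share of the gene's counts and TPM at the right. Sod2-201 has 82.1% of the counts, and Sod2-203, a small block in the middle of the gene, has 54.7% of the TPM.

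Sod1 differed from the other genes in that nearly all of its counts were assigned to a form that keeps introns. Sod1-202, of 3970 nt, keeps introns 1 and 2 and has 3329 intron bases. It had 228, 414 and 409 expected counts, against 9.05, 15.3 and 36.4 for the spliced message Sod1-201 of 641 nt. Per length, Sod1-202 had 4.85, 7.09 and 5.52 TPM and Sod1-201 had 1.68, 2.51 and 4.65 TPM, so the intron-bearing form was the higher in each library. The read-based tables put the forms closer, at 3.73, 5.49 and 4.25 TPM for Sod1-202 and 4.18, 4.01 and 3.99 TPM for Sod1-201. The last 650 bases of Sod1 are overlapped on the other strand by Scaf4, which had 58.3 ± 5.91 TPM, and whether counting used strand is not known from the sources used here.

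Among the oxidase genes, Cybb-202 and Ncf4-206 had the highest mean of the retained-intron forms of their genes in the alignment-based tables, and Cybb-203 and Ncf4-204 in the read-based ones. Cybb-202, of 928 nt, had 68.6, 29.1 and 39.9 TPM, close to the 59.4, 32.3 and 47.9 TPM of the full-length Cybb-201. Ncf4-206 had 32.6, 21.3 and 27.9 TPM and Ncf4-204 had 28.8, 26.4 and 20.4 TPM, beside 35.0, 25.4 and 31.4 TPM for the full-length Ncf4-201. Ncf1-203 had 48.5, 31.4 and 32.3 TPM, below the 56.1, 52.1 and 60.6 TPM of Ncf1-202, the main protein-coding form. In the alignment-based tables the ranges of these forms thus overlapped that of the full-length message for Cybb and Ncf4 and not for Ncf1. The read-based tables gave another picture: Ncf1-203, at 51.7, 30.3 and 34.9 TPM, overlapped Ncf1-202, at 44.4, 38.9 and 49.3 TPM, and Ncf4-204, at 73.4, 42.6 and 42.0 TPM, lay above Ncf4-201, at 31.8, 23.4 and 29.6 TPM. Cybb-203 had 91.4, 46.9 and 55.9 TPM there, above the 58.3, 31.5 and 45.7 TPM of Cybb-201 in each library. In the alignment-based tables Cybb-203 was below Cybb-201 in each library, at 39.3, 26.8 and 29.2 TPM. The borders at which these forms run on into an intron, or out of it, are shown to let the forms be told from the spliced messages. Coding exon bases are in capitals and intron bases in lower case, all 5′ to 3′ on the strand of the gene (mm10, GENCODE M21):
Cybb-202, chrX:9465584-9465703, - strand: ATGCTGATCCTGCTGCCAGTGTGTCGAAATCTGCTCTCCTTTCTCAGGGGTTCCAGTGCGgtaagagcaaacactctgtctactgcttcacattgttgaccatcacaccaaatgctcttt
Ncf4-204, chr15:78260695-78260802, + strand: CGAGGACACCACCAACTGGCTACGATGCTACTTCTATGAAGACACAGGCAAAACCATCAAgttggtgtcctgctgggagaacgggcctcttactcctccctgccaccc
Ncf1-203, chr5:134227466-134227585, - strand: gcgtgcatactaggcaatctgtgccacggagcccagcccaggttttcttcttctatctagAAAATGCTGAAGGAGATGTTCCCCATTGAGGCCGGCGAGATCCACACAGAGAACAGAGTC
The intron of Cybb and that of Ncf4 open with gt. In Ncf1-203 the intron comes before the exon and closes with ag.

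When only protein-coding forms were summed, a choice made after the shares of forms had been seen, Ncf1 was the highest of the genes in the alignment-based tables. It had a mean of 81.6 ± 5.88 TPM, followed by Cybb at 46.5 ± 13.6, Sod2 at 46.1 ± 13.6, Cyba at 41.0 ± 10.3, Rac2 at 37.9 ± 8.14 and Ncf4 at 35.1 ± 4.24 TPM. Cat had 7.18 ± 1.59 TPM and Sod1 2.95 ± 1.53 TPM. The ranges of Ncf1 and Cybb were apart. This Ncf1 level includes Ncf1-205, which keeps the last intron, at 29.0, 21.3 and 22.3 TPM. Ncf1-202 alone, at 56.1, 52.1 and 60.6 TPM, overlapped the range of Cybb. In the read-based tables the protein-coding forms of Rac2 were the highest, with 111, 140 and 88.6 TPM, followed by those of Cyba at a mean of 72.8 ± 10.2 and Ncf1 at 64.2 ± 5.68 TPM. Most of this Rac2 level, 84.6, 115 and 68.0 TPM, was given to Rac2-203, a form of only 254 nt. Sod2 held the first place in neither sum, while Sod1 and Cat were the lowest detected genes in both.

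The read-based tables differed from the gene tables most for Rac2, Cyba and Ncf4. The read-based level was above the alignment-based level by 2.31 ± 0.11 in log2 for Rac2, a 4.94-fold difference, and by 1.34 ± 0.12 for Cyba, a 2.53-fold difference, against a median of 0.39 over protein-coding genes. For Ncf4 the difference was 0.77 ± 0.09, for Cybb 0.42, for Cat 0.37, for Ncf1 0.16, for Sod2 0.06 and for Sod1 -0.02 ± 0.29. In Rac2 the full-length Rac2-201 agreed within the spread of the libraries, with 26.9, 25.6 and 20.6 TPM in the read-based tables and 26.2, 22.2 and 18.3 TPM in the alignment-based ones. The difference came from Rac2-202 of 459 nt and Rac2-203 of 254 nt, which held 43.3 ± 0.829% and 44.3 ± 2.31% of the read-based TPM. In Cyba it came from Cyba-203, at 42.9 ± 3.13% of the read-based and 19.8 ± 4.90% of the alignment-based TPM, and from Cyba-202, which had 29.2, 22.7 and 28.5 TPM in the read-based tables and 1.31, 0 and 0 TPM in the alignment-based ones. Over all forms, the read-based level was higher by a median of 0.58 in log2 for 1404 forms under 500 nt while the median difference was -0.17 for forms of 2000 nt or more. The labels give a size range of 250 to 400, without a unit, and the part of fragment length in these levels was not tested.

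The libraries differed most in Sod2 and Cybb. Sod2 was 2.28-fold and Cybb 1.90-fold higher in replicate 1 than in replicate 2 in TPM, and 1.74-fold and 1.83-fold higher in counts scaled by TMM, edgeR's scaling by a trimmed mean of ratios. The SD over libraries of log2(TPM + 1) was 0.59 for Sod2 and 0.46 for Cybb, larger than that of 97.6% and 94.1% of detected genes, whereas their biological coefficients of variation on counts, given next, exceeded those of 74.4% and 76.8%. For the other genes it lay between 0.19 for Ncf1 and 0.31 for Sod1, and the median of the 8 detected genes was 0.28 against 0.16 for all detected genes. The biological coefficient of variation, which edgeR estimates from the counts after removal of counting error, was 0.201 for Cybb, 0.196 for Sod2 and 0.123 for Ncf1. In this estimate edgeR also draws each gene toward other genes of like level. The plain coefficients of variation of TMM-scaled counts, with counting error left in, were 29.4% for Cybb, 29.3% for Sod2 and 7.22% for Ncf1. The median of the biological coefficient was 0.156 for the 8 genes and 0.157 for all detected genes. These medians lay close together, but the pull toward other genes can itself bring them nearer.

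Replicate 1 held the highest TPM of 4 of the 8 detected genes, Cybb, Ncf1, Ncf4 and Sod2, and of 39.4% of all detected genes. Replicate 2 held that of Rac2 alone, 1 of the 8, and of 28.9% of all detected genes. Replicate 3 held that of 3 of the 8, Cyba, Sod1 and Cat, and of 31.7% of all detected genes. The lowest TPM of Sod1 and Cat was in replicate 1, as for 34.9% of all detected genes, that of Cybb, Cyba, Ncf1, Ncf4 and Sod2 in replicate 2, as for 39.3%, and that of Rac2 in replicate 3, as for 25.8%. With 8 genes, these counts were not read as differing from the shares over all detected genes. On counts scaled by TMM, Rac2 was highest in replicate 1 and Sod1 in replicate 2. Replicate 1 deviated from the mean of the other libraries by 0.90 for Sod2, 0.71 for Cybb, -0.41 for Cat and -0.53 for Sod1 in log2(TPM + 1), with a median of 0.19 over the 8 genes and 0.02 over all detected genes. With protein-coding forms only, that median of the 8 genes was 0.06. For replicate 2 the median was -0.25 over the 8 genes and -0.03 over all detected genes. Replicate 1 also had the most starting RNA, the fewest counts and the highest share of TPM in features under 200 nt, 43.3% against 38.8% and 35.5% in replicates 2 and 3. Its share of counts in genes treated as ribosomal RNA was the lowest, 12.0% against 15.3% and 18.6% in replicates 2 and 3. The part of any of these in the differences between libraries was not tested.

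**Figure D4:**
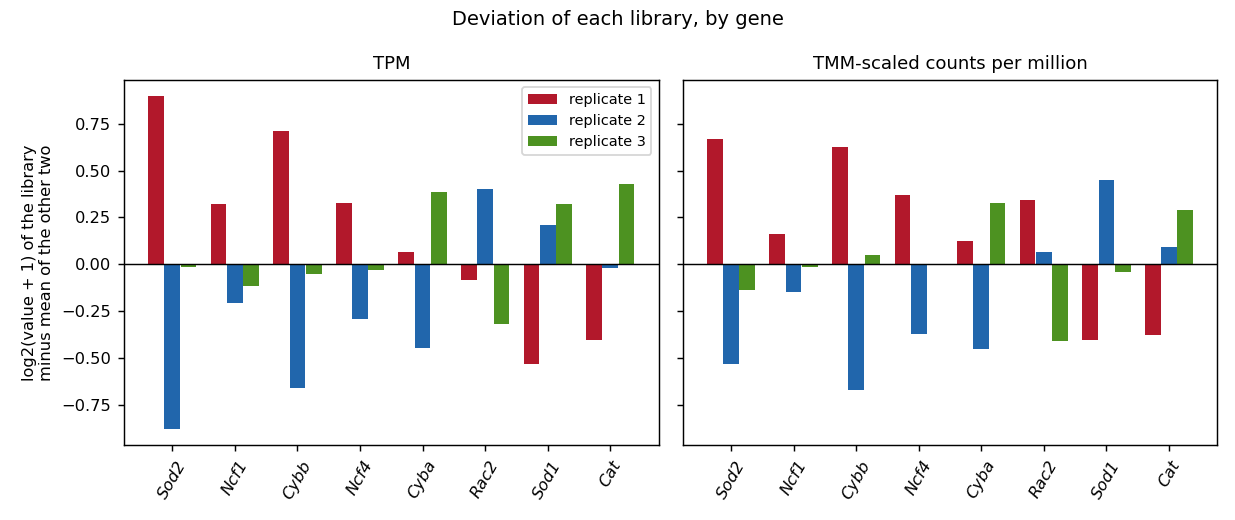
Deviation of each library from the mean of the other libraries in log2(value + 1), for the 8 detected genes, in TPM (left) and in CPM scaled by TMM (right). In TPM, replicate 1 is above the others by 0.90 for Sod2 and 0.71 for Cybb and below them by -0.53 for Sod1 and -0.41 for Cat.

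Genes with levels most like those of the pair that varied most were sought among 8440 genes by the distance between their log2 levels over the 3 libraries. Nearest to Sod2 were mt-Co1, a mitochondrial gene for a subunit of cytochrome c oxidase, at a distance of 0.21, Slamf7 at 0.28 and Cd300lf at 0.33. Nearest to Cybb were Ifi211 at 0.17, Malt1 at 0.20 and Fcer1g, the common gamma chain of Fc receptors, at 0.20. With 3 libraries of 1 group such likeness describes level and library differences and nothing more.

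Partners and regulators of the oxidase were present as well. Of 9 such genes, all had a mean of at least 1 TPM, with a median of 4.84 ± 0.29 in log2(TPM + 1). Prkcd, a protein kinase that phosphorylates p47phox, had 375 ± 47.8 TPM, and Dock2 and Vav1, exchange factors for Rac, had 342 ± 16.5 and 150 ± 9.57 TPM. Rac1, the broadly expressed relative of Rac2, had 10.4 ± 0.304 TPM in the gene tables and 52.8, 53.9 and 49.7 TPM in the read-based ones, and Hvcn1, the proton channel that balances the charge moved by the oxidase, was the lowest in the gene tables at 6.66 ± 0.569 TPM. Cybc1, the chaperone that lets gp91phox mature, had 19.5 ± 0.680 TPM.

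The oxidases best known from other tissues had few or no counts in the gene tables. Of 9 other NOX and DUOX genes, 1 reached 1 TPM, Noxo1, the organiser of Nox1, with 2.77, 1.34 and 2.05 TPM, and 5 had 0 counts. Nox4 was listed at 0 in the gene tables but at 15.3, 14.3 and 11.4 TPM in the read-based tables, so its level was not settled by these files. The 5 phagocyte oxidase genes described here and the 9 partners and regulators all had a mean above 1 TPM in both kinds of table.

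Of 12 genes for the copper chaperone and for peroxide-removing enzymes, 10 had a mean of at least 1 TPM, with a median of 3.37 ± 0.15 in log2(TPM + 1). Ccs, which loads copper into the protein of Sod1, had 22.7 ± 3.37 TPM, above Sod1 itself. Prdx1, a cytosolic peroxiredoxin, was the highest with 188, 138 and 153 TPM. Gpx4 and Gpx1, glutathione peroxidases, had 30.2 ± 3.17 and 25.1 ± 5.08 TPM, each above Cat in every library. Gpx8 had 0 counts and Gpx7 a mean of 0.0367 TPM.

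**Figure D5:**
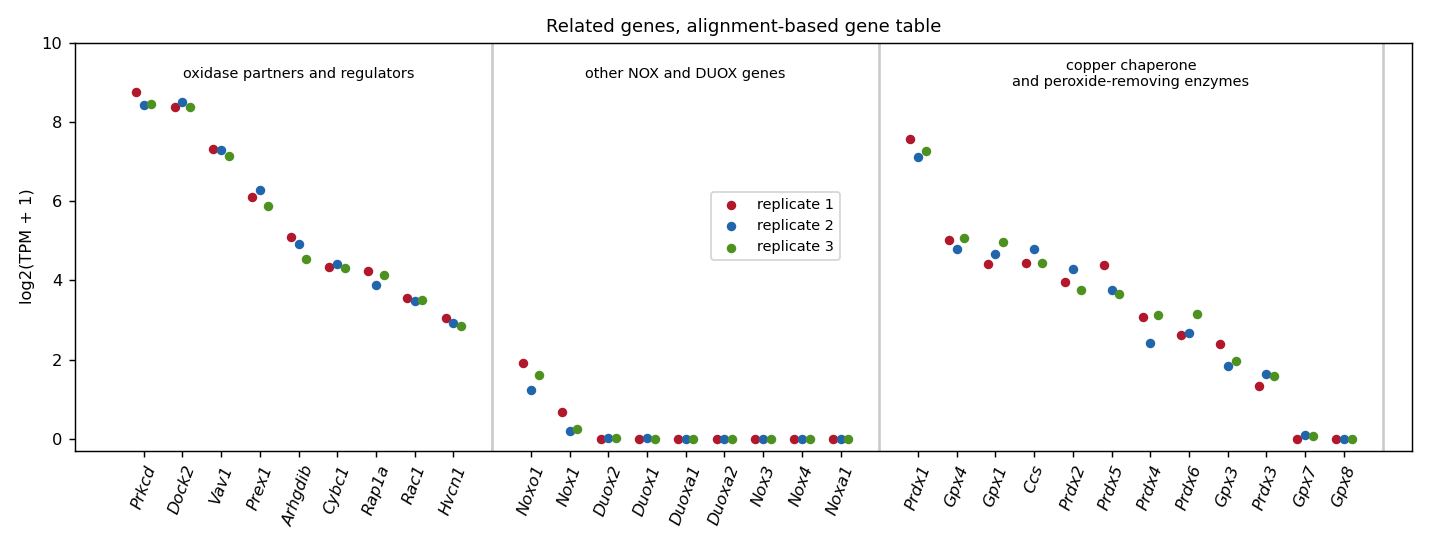
Level in log2(TPM + 1) of 30 related genes in each of the 3 libraries, in 3 lists. All 9 oxidase partners and regulators lie above 1 TPM, while Noxo1, at a mean of 2.05 TPM, is the only one of the other NOX and DUOX genes to do so.

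Promoter windows from RefSeq (GRCm38.p6, 250 bases before to 50 bases after the start) were found for 6 of the 9 genes: Cat, Cyba, Cybb, Ncf1, Sod1 and Sod2. Ncf4, Rac2 and Sod3 are named only. The windows of Sod2 and Cybb are shown because these genes differed most between libraries in the same direction. Capitals mark matches on either strand to the GC box, spelled GGGCGG, the core bound by PU.1, spelled GAGGAA, the CCAAT motif, the TATA box, spelled TATAAA, and the NF-kB consensus:
Sod2, chr17:13007589-13007888, + strand: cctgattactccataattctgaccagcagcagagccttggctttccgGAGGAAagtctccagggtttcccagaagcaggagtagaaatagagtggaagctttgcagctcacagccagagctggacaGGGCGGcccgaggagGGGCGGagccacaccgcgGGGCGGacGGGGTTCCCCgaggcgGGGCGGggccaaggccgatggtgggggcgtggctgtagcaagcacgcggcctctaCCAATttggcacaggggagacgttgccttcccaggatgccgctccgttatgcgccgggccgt
Cybb, chrX:9469275-9469574, - strand: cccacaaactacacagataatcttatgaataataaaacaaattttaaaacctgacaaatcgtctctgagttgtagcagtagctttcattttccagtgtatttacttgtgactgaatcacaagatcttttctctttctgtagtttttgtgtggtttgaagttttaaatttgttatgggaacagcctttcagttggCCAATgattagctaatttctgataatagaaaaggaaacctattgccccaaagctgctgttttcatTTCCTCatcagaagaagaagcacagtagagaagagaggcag
The windows had little in common in composition, with 64.3% G and C in Sod2 and 35.3% in Cybb, beside a median of 52.7% over 32851 windows. Sod2 held 4 GC boxes, which 35.7% of all windows held at least once, and Cybb none. Sod2 held the only NF-kB consensus among the 6 genes, starting at position -83, and 4.51% of all windows held one. Both windows held a PU.1 core, at -203 in Sod2 and at 10 after the start in Cybb, as did 28.3% of all windows. Each also held 1 CCAAT motif, found in 37.4% of windows, and neither held a TATA box, found in 13.6% of windows and here in Sod1 alone. In Cat a PU.1 core and a CCAAT motif share bases, and 2 pairs of GC boxes overlap in Sod1. A match describes letters in a window and is not a site in use.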

How the data were processed

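The members and the gene lists were chosen with earlier results of these data known. Expected counts and TPM of the gene and alignment-based transcript tables were estimated by the authors from alignments, per the file headers; estimated counts and TPM of the read-based tables were derived by the authors from the reads, as deposited. All were made on mm10 with GENCODE M21, per the deposited README files. The tools and the use of strand are not given in the sources used here. Rows of no annotated gene made up 1.24, 0.482 and 0.228% of all counts and were kept out of the totals behind CPM and of edgeR and DESeq2. Read-based forms were summed by gene. Genes named beyond the members are 3 nearest in level to each of the members with the largest spread, and members of the lists; some items are not reported here. A gene was detected at a mean count of at least 10, and the pseudocount was 1. Counts were rounded before DESeq2 1.42.0 and edgeR 4.0.16 (TMM, a model with an intercept alone) were run in R 4.3.3. Tables and figures were made in Python 3.11.15, using scipy 1.17.1, pandas 2.3.3, numpy 2.4.6 and matplotlib 3.10.9. On counts simulated for 15873 genes with the same coefficient of variation in each gene, the value common to all genes was estimated. Settings of 0.1, 0.2 and 0.4 came back as 0.0996, 0.201 and 0.402. How well the values of single genes come back was not tested by this. Intervals are exact binomial 95% intervals and, like the limits of 3 counts, cover counting error only, since the reads carry no molecular identifiers and may be copies of each other. Cyba lies within Gm20388 and Ncf1 overlaps Gtf2ird2 by 4303 bases, both on the opposite strand, so some of their reads may be shared. Alternatives were the read-based tables, rescaled TPM, TMM and DESeq2 scaling, other filters and pseudocounts, another threshold and leaving out each library. Protein-coding forms alone and shares of counts were added after seeing the data. Rescaled TPM left out short features and also the genes treated as ribosomal RNA.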

Additional observations from a re-analysis of the deposited data

How the results depend on the processing

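Of 76 recalculated summary values, 71 stayed within the limit set for them (1.5 times for a count, 1 SD for a value) and 5 moved by more. A count that moved by exactly 1.5 times was taken as within the limit. One such count was that of genes highest in replicate 3, at 2 in the read-based tables against 3 in TPM. The limits were wide: the median deviation of replicate 1 stayed within them at 0.06 with protein-coding forms only, against 0.19 in TPM. Of the 71, the median deviation of replicate 3 changed sign, at 0.12 with protein-coding forms only against -0.02 in TPM. In the read-based tables, 2 of the genes were highest in replicate 2 and 3 of the other NOX and DUOX genes reached 1 TPM. At a threshold of 10 TPM, 0 of those NOX and DUOX genes and 6 of the copper chaperone and peroxide-removing genes passed. The median biological coefficient of variation of the 8 genes was 0.114 to 0.177 when each library was left out in turn, lowest without replicate 1, beside 0.156 with all 3. Of 79 recalculations for single genes, 28 moved by more than 1 SD: 8 of 9 levels with TPM rescaled, which raises all levels by construction, 10 of 14 values in the read-based tables, 5 of 9 levels with protein-coding forms alone and all 5 retained-intron shares taken from counts. None of the 42 that left out 1 library moved by that much. Leaving out 1 of 3 values cannot move their mean by 1 SD, so this result was fixed beforehand. No paired analysis was possible because there is 1 group. Depth limits Sod3, at 0 counts, and forms with few counts, such as Sod1-201 at 9.05 to 36.4.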

Other observations

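Cybb-205, a protein-coding form of 390 nt whose first exon starts at -18.4 kb from the start of the full-length Cybb-201, had 0 counts in the alignment-based tables of all 3 libraries and 27.6, 4.39 and 5.67 TPM in the read-based tables. Cybb-204, a form annotated for nonsense-mediated decay, likewise had 0 counts in the alignment-based tables and 2.81, 3.30 and 0 TPM in the read-based ones. Sod2-208, which lies beyond the end of Sod2-201, had 37.2, 27.4 and 39.5 expected counts in the alignment-based tables and 8.08, 5.63 and 4.93 TPM in the read-based ones. Both kinds of table thus gave RNA from the far end of the annotated Sod2 gene, whereas RNA of these Cybb forms was given in the read-based tables alone.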
